A study of Mus musculus with 6 samples.

Results

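The neural retina lies against the retinal pigment epithelium (RPE), and its RNA is found in RPE-choroid preparations. The levels of 40 genes of neural retina cells were followed in RPE-choroid libraries, and the ratios between cell classes were compared between control and subretinal fibrosis (SRF) mice. The genes were listed by name for the cell in which they are known: 11 rod genes, 8 genes that rods and cones share, 8 cone genes, 6 bipolar cell genes, 4 amacrine cell genes and 3 ganglion cell genes. Their symbols were matched to the Ensembl identifiers of the tables. Of 15663 genes listed, these are 40, and all 40 were among the 13454 genes that passed the filter on low counts. RNA-seq was made from 6 mice of strain C57BL/6 (C57BL/6J males in the study's methods), each giving 1 library. The control group comprised 3 untreated healthy mice, and the SRF group comprised 3 mice that had received the two-stage laser treatment. In the SRF group each eye received 4 burns, each lesion was burnt again 10 days later, and RPE-choroid RNA was extracted 20 days after the second laser. The tissue is a dissected sheet and not a sorted population, so RPE, choroidal vessels, stroma, immune cells and any attached retina contribute to the same library. The labels do not give the amount of retina left on each sheet.

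Rods and cones detect light through an opsin that acts on a G protein, transducin. Transducin activates a cGMP phosphodiesterase, the fall in cGMP closes a cyclic nucleotide-gated channel, and the cell releases less glutamate. Rods and cones use different genes for most of these steps. ON bipolar cells read the glutamate signal with the receptor mGluR6, encoded by Grm6, which controls the channel encoded by Trpm1. Amacrine cells modulate the signal with inhibitory transmitters, and ganglion cells carry it to the brain. In the eye the outer segments of photoreceptors reach into the RPE, whereas bipolar, amacrine and ganglion cells lie further from it.

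Some of the 40 genes are also known in cells outside the retina. Those taken as such are Gnb1, Trpm1, Prkca, Isl1, Tfap2b, Calb2, Nefl, Sncg and Rbpms. Trpm1 is known in melanocytes and RPE as well as in ON bipolar cells, and Gngt2, the cone transducin gamma subunit, is known in myeloid cells too.

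The upstream sequences of a rod gene and of Trpm1 are shown because their RNAs behaved differently across the libraries. Sag encodes rod arrestin, which ends the light response, and lies on chromosome 1 at 87803680 to 87845158 (plus strand). Trpm1 lies on chromosome 7 at 64153835 to 64269775 (plus strand), and the window shown is upstream of the first of its RefSeq starts. Both are from RefSeq on GRCm38.p6, read 5′ to 3′, and hold the 250 bases before the start, Sag at chr1:87803430-87803679 and Trpm1 at chr7:64153585-64153834. Capitals mark matches, on either strand, to TAATCC, the letters bound by the photoreceptor factor Crx and its relatives, to TGCTGA, part of the site of the rod factor Nrl, and to TCATGTG, a site of the pigment cell factor Mitf.
Sag: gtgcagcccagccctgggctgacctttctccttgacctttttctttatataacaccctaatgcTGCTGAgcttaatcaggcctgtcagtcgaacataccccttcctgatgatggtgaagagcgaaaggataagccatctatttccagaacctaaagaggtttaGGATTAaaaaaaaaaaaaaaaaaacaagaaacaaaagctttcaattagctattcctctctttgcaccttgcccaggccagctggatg
Trpm1: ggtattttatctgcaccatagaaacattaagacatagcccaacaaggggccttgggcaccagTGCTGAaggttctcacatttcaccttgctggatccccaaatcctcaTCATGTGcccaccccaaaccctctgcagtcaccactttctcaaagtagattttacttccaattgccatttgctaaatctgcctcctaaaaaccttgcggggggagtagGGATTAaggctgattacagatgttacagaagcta
The Sag window holds TAATCC on the minus strand and TGCTGA on the plus strand. The Trpm1 window holds the same pair in the same orientations, and between them TCATGTG on the plus strand. No match to these letters was found in the window upstream of the other RefSeq start of Trpm1. A promoter entry was matched for 28 of the 40 genes. Of these, 11 (39.3%) hold TAATCC in the 250 bases, against 7.21% of 27025 genes. TGCTGA is in 7 of the 28 (25.0%) and in 18.0% of all genes, and TCATGTG is in 2 of the 28 (Pde6b and Trpm1) and in 3.72% of all genes. None of the motifs overlaps another in the windows shown. A match to these letters is a description of the sequence and not a binding site.

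The libraries held between 13667310 and 24356023 counts on genes. Genes of the RPE and of melanocytes were high in every library, with a mean log2 CPM (CPM, counts scaled to a common library size by TMM) of 9.47 to 10.1 over 8 RPE genes and of 10.3 to 10.7 over 4 melanocyte genes. The mean of the RPE genes was lower in every SRF library than in every control library (9.47 to 9.90 against 9.96 to 10.1). Of the 8 genes, 3 (Rrh, Lrat and Rgr) fell at an unadjusted p-value under 0.05 in edgeR, with an adjusted p-value of 0.227 each. The fold change was negative for 7 and positive for 1 (0.317 on the log2 scale). The groups did not overlap for 3 of the 8, against 13.1% of all genes. The part of the RPE difference in the comparisons of retina genes was not tested. In bulk RNA fewer cells of a type and less RNA per cell cannot be told apart.

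Retina RNA stood far higher in control mouse 1 and SRF mouse 3 than in the other mice. Of all counts, the 40 genes took 1.61%, 0.385% and 0.317% in control mouse 1, 2 and 3, whereas they took 0.262%, 0.329% and 1.67% in SRF mouse 1, 2 and 3. The rod genes alone took 1.12%, 0.243% and 0.195% in the control mice and 0.155%, 0.207% and 1.16% in the SRF mice. Control mouse 1 and SRF mouse 3 resembled each other more than either resembled its own group, and they were the highest pair of libraries for 35 of the 40 genes (87.5%), against 15.5% of all genes tested. The lowest library was SRF mouse 1 for 23 of the 40.

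**Figure D1:**
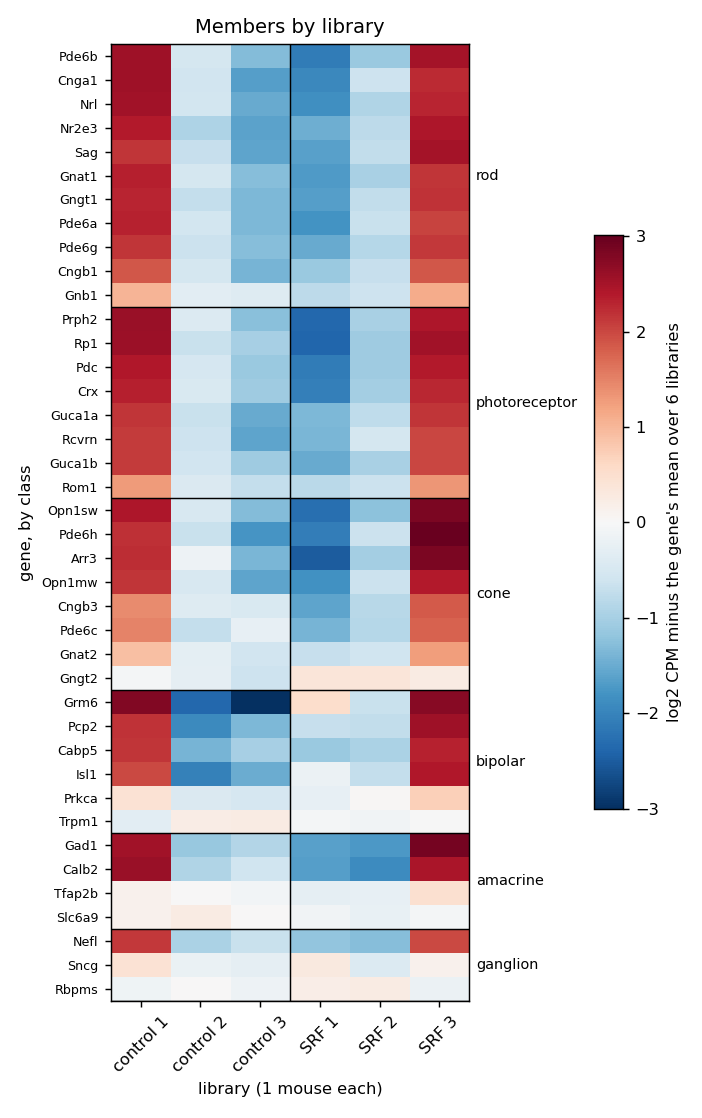
Each row is a gene and each column a library, coloured by log2 CPM minus the mean of that gene over the 6 libraries, with genes grouped by cell class. Control 1 and SRF 3 are the highest pair for 35 of 40 genes, whereas Gngt2, Trpm1, Slc6a9, Sncg and Rbpms are nearly flat.

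Rod genes made up most of the counts on the 40 genes in every library. For Gnat1, the alpha subunit of rod transducin, control mice 1, 2 and 3 held 51130, 9521 and 7320 counts and SRF mice 1, 2 and 3 held 4236, 6837 and 59537. Sag gave 23381, 4432 and 3086 counts in the control mice and 2325, 4215 and 39474 in the SRF mice. The groups overlapped for both genes, since each group held 1 library with many and 2 with few of their reads. Per length, Gnat1 ranged from 101 to 1610 FPKM and Sag from 73.7 to 1296 FPKM. Nrl, the transcription factor that specifies rods, ranged from 48 to 815 counts, and its target Nr2e3, which represses cone genes in rods, ranged from 131 to 1885 counts. The catalytic phosphodiesterase subunits Pde6a and Pde6b differed between their highest and lowest library by 17.3-fold and 25.5-fold in CPM, and the inhibitory subunit Pde6g by 12.7-fold. The channel subunits Cnga1 and Cngb1 differed by 22.6-fold and 9.64-fold. Gnb1, the transducin beta subunit that other cells also use, differed by 3.72-fold only. Its lowest library still held 372 FPKM.

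The genes shared by rods and cones followed the same order of libraries. Prph2, a structural protein of outer segment discs, gave 12279, 2101 and 1510 counts in control and 540, 1379 and 14581 in SRF mice. Its partner Rom1 gave 5894, 2465 and 2612 counts in control and 1883, 2059 and 8024 in SRF mice, so the same pair of libraries was highest but by a smaller factor. The CPM of Rom1 spanned 4.41-fold, against 31.3-fold for Prph2. Crx, which activates photoreceptor genes, spanned 21.1-fold, and phosducin (Pdc), which binds transducin beta and gamma subunits, 22.6-fold. The calcium sensors Rcvrn, Guca1a and Guca1b spanned 12.2-fold to 12.8-fold.

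Per length, cone and rod genes overlapped in level. Averaged over the 6 libraries, the cone genes lay between 0.70 (Cngb3) and 66.9 FPKM (Opn1sw) and the 11 rod genes between 7.80 (Pde6a) and 760 FPKM (Gnb1). The mean log2 CPM of the 8 cone genes was 5.05, 3.05 and 2.51 in control mice and 2.03, 2.80 and 5.47 in SRF mice, against 8.58, 5.79 and 5.06 in control and 4.80, 5.60 and 8.52 in SRF mice for the 11 rod genes. Opn1sw, the short-wavelength cone opsin, gave 4267, 781 and 576 counts in control and 225, 451 and 7555 in SRF mice. Opn1mw, the medium-wavelength opsin, gave 475, 106 and 64 counts in control and 42, 92 and 744 in SRF mice. Per length, Opn1sw exceeded Opn1mw in every library, with a mean of 12.7 FPKM for Opn1mw. Cone arrestin (Arr3) ranged from 20 to 782 counts and the inhibitory phosphodiesterase subunit Pde6h from 18 to 579 counts. Both were lowest in SRF mouse 1 and highest in SRF mouse 3.

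The cone gene Gngt2 did not share this pattern. It gave 317, 372 and 378 counts in control and 579, 561 and 515 counts in SRF mice, which is 23.6, 20.2 and 15.8 CPM against 31.3, 31.2 and 28.8 CPM. Every SRF library was above every control library. The highest SRF library for the other cone genes was the lowest for Gngt2. Macrophage genes were also higher in SRF mice. The mean log2 CPM of 6 such genes was 5.71, 5.96 and 6.01 in control and 6.41, 6.83 and 6.61 in SRF mice. Within each group the order of the libraries was not that of Gngt2. Of the 6 genes, 5 rose at an unadjusted p-value under 0.05 in edgeR, Cd68 by 1.05 ± 0.16 (SE) on the log2 scale. The summed CPM of the list was 433 to 544 in control and 713 to 884 in SRF mice. The remaining gene, Csf1r, differed by -0.03 ± 0.11. Gngt2 (chromosome 11, 95837216 to 95845734, GRCm38) overlaps Abi3 on the opposite strand, and whether reads were counted by strand is not given in the sources used here. Abi3 gave 191, 280 and 289 counts in control and 300, 421 and 235 in SRF mice, which overlapped. The part of macrophages or of Abi3 reads in the Gngt2 difference was not tested.

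**Figure D2:**
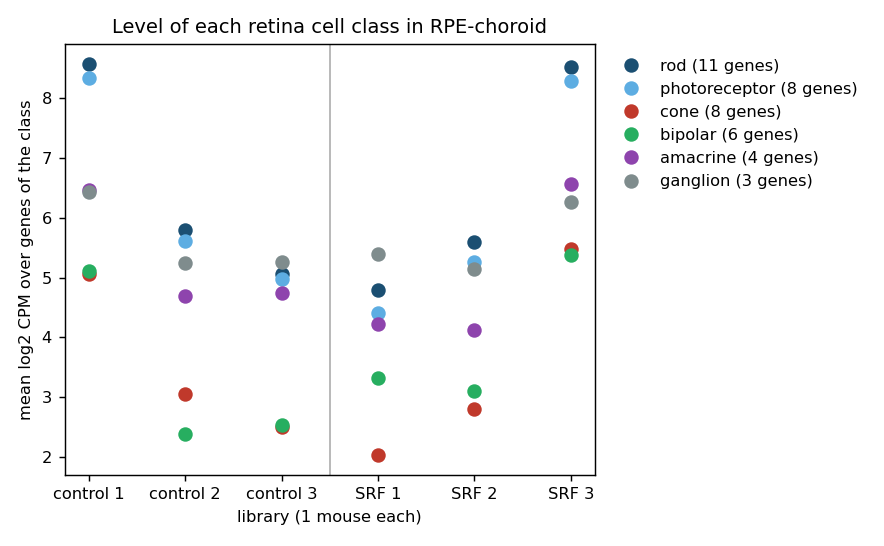
The vertical axis gives the mean log2 CPM of the genes of each cell class in each of the 6 libraries, which stand on the horizontal axis by group. Rod genes are high in control 1 (8.58) and SRF 3 (8.52) and lie between 4.80 and 5.79 in the other 4 libraries, with controls and SRF mice overlapping, whereas the 3 ganglion genes stay between 5.15 and 6.43.

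Bipolar genes were the least alike, with a mean FPKM from 1.03 (Grm6) to 118 (Trpm1). For Grm6 the control mice held 155, 6 and 5 counts and the SRF mice 45, 19 and 199. Control mice 2 and 3 were thus below both of the low SRF libraries, and the groups overlapped only through control mouse 1. Pcp2, a modulator of G protein signalling in bipolar cells, gave 446, 36 and 69 counts in control and 85, 79 and 771 in SRF mice. Isl1, a transcription factor of ON bipolar and other inner retinal cells, gave 222, 19 and 36 counts in control and 69, 46 and 401 in SRF mice. In both, as in Grm6, the lowest SRF library held more than control mice 2 and 3. Cabp5, a calcium-binding protein of bipolar cells, gave 246, 29 and 49 counts in control and 35, 38 and 368 in SRF mice, and here the low libraries of the groups overlapped. Prkca, a marker of rod bipolar cells that many other cells express, spanned 2.33-fold in CPM. Trpm1 gave 3592, 7075 and 9476 counts in control and 5847, 5558 and 5902 in SRF mice. It was lowest in CPM in control mouse 1, 1 of the 2 libraries with most retina RNA, and its CPM spanned 1.48-fold, against 55.3-fold for Grm6.

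Amacrine and ganglion genes divided in the same way. Gad1, which makes the transmitter GABA, gave 849, 91 and 142 counts in control and 65, 59 and 1426 in SRF mice. Calb2 (calretinin), a calcium buffer of amacrine and ganglion cells, gave 1761, 214 and 344 counts in control and 127, 105 and 2127 in SRF mice. For both genes SRF mice 1 and 2 were below all 3 control mice and SRF mouse 3 was above them in counts. Control mouse 1 had fewer counts in total (13667310 against 17709357), and in CPM Calb2 was lower in SRF mouse 3 than in control mouse 1. Slc6a9, a glycine transporter, gave 211, 230 and 197 CPM in control and 182, 166 and 188 CPM in SRF mice, so every SRF library was below every control library. The transcription factor Tfap2b spanned 1.68-fold in CPM. Of the ganglion genes, the neurofilament gene Nefl spanned 10.6-fold, gamma-synuclein (Sncg) 1.79-fold and the RNA-binding protein gene Rbpms 1.35-fold.

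The slope of each gene on the rod level summarises how far it moved with rods. The rod level is the mean log2 CPM of the rod genes other than Gnb1, and the slope is the log2 change of a gene per log2 change in this level, fitted with the group as a second term. It describes 6 libraries that fall mostly into 2 with much and 4 with little retina RNA. A slope of at least 0.8 was found for 28 of the 40 genes, against 1.50% of all genes tested. The 10 rod genes that define the level lie among them by construction. Gad1 (1.13 ± 0.11, SE), Grm6 (1.05 ± 0.21), Calb2 (1.04 ± 0.11), Pcp2 (0.97 ± 0.10), Cabp5 (0.94 ± 0.09) and Nefl (0.84 ± 0.08) moved nearly in proportion to rods although they are genes of inner retinal cells. A slope from 0.4 to 0.8 was found for 5 genes, which were Gnb1, Rom1, Gnat2, Pde6c and Cngb3. The remaining 7 had a slope under 0.4: Gngt2 (0.05 ± 0.05), Trpm1 (-0.06 ± 0.05), Prkca (0.25 ± 0.04), Slc6a9 (0.02 ± 0.04), Tfap2b (0.13 ± 0.04), Sncg (0.10 ± 0.06) and Rbpms (-0.06 ± 0.04). Of these 7, Trpm1, Prkca, Tfap2b, Sncg and Rbpms had been listed as genes of other cells too. The bounds of 0.4 and 0.8 were set after the slopes were seen.

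**Figure D3:**
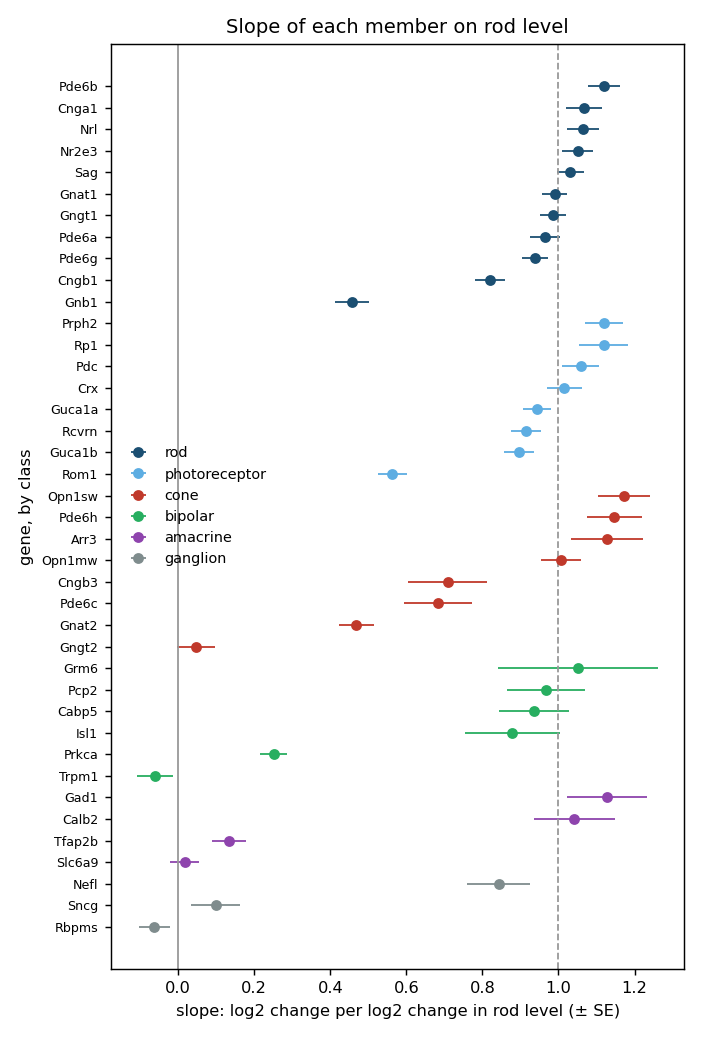
Points give the slope of each of the 40 genes on the rod level (log2 per log2) and bars its SE, coloured by cell class. Most rod and shared photoreceptor genes, the cone genes Opn1sw, Opn1mw, Arr3 and Pde6h, and Grm6, Pcp2, Cabp5, Gad1 and Calb2 lie near 1. Gngt2, Trpm1, Slc6a9, Sncg and Rbpms lie near 0.

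The level of retina RNA did not differ between SRF and control mice by more than the spread between mice. A gene counted as called where the adjusted p-value was below 0.05 and the log2 fold change was 0.5 or more in size. In edgeR's quasi-likelihood test no gene of the 40 was called, and no gene of all 13454 was, which is 0% called. DESeq2 called 152 genes (1.13%) and none of the 40. At an unadjusted p-value under 0.05 edgeR held 1 of the 40, Gngt2, which was higher in SRF mice, against 7.01% of all genes (4.16% higher and 2.85% lower), and DESeq2 held Gngt2 and Slc6a9. The 40 genes were higher in SRF mice for 20 and lower for 20, with a median log2 fold change of 0.00082 against 0.0012 for all genes. Their median SE was 1.23 on the log2 scale, against 0.188 for all genes tested. For Gnat1 the log2 fold change was -0.23 with a 95% interval of -3.17 to 2.71, so that a change of several fold either way was not detectable with these mice. Gngt2 differed by 0.62 ± 0.17 (SE, unadjusted p-value 0.0077, adjusted 0.421) and Slc6a9 by -0.25 ± 0.11 (unadjusted p-value 0.0624, adjusted 0.751). They were the only members whose groups did not overlap, 2 of 40 (5.0%) against 13.1% of all genes (6.71% higher and 6.43% lower in SRF mice).

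The sign of the group difference turned on single mice, most strongly on control mouse 1 and SRF mouse 3. Without SRF mouse 1 or 2, 37 and 38 of the 40 genes were higher in SRF mice (median log2 fold change 0.43 and 0.35). Without control mouse 2 or 3, 34 and 35 were lower, with medians of -0.31 and -0.33. Without control mouse 1, 38 of the 40 genes were higher in SRF mice, with a median log2 fold change of 1.76. Without SRF mouse 3, 37 were lower, with a median of -1.96. Without both, which left 2 mice a group, 11 were higher and 29 lower with a median of -0.22, and no member was called. At an unadjusted p-value under 0.05 this comparison held 12 members, where it held 17.5% of all genes, with 6 higher (9.39% of all genes) and 6 lower (8.1%). Higher were Grm6 (2.71), Isl1 (1.30), Pcp2 (0.89), Gngt2 (0.80), Prkca (0.38) and Rbpms (0.30), and lower were Calb2 (-1.03), Opn1sw (-0.83), Pdc (-0.72), Nefl (-0.44), Gnb1 (-0.35) and Trpm1 (-0.32), all as log2 fold changes. The lowest adjusted p-value among them was 0.0719, for Gngt2.

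The ratio of shared photoreceptor genes to rod genes varied far less than their levels. The means of the inner retina classes, which hold genes that moved little with rods, did not keep a fixed ratio to rod genes. The mean log2 CPM of the shared photoreceptor genes minus that of the 11 rod genes was -0.24, -0.18 and -0.07 in control and -0.39, -0.33 and -0.23 in SRF mice, a range of 0.32 where the mean of the rod genes itself ranged over 3.78. The groups overlapped through SRF mouse 3 and control mouse 1. Cone minus rod was -3.53, -2.74 and -2.55 in control and -2.77, -2.80 and -3.05 in SRF mice, with the SRF mice inside the range of the controls. Without Gngt2 and Gnb1, the cone to rod difference in means between the groups was -0.04. Amacrine minus rod was -2.11, -1.11 and -0.31 in control and -0.58, -1.48 and -1.95 in SRF mice, and ganglion minus rod was -2.15, -0.55 and 0.21 in control and 0.60, -0.45 and -2.25 in SRF mice. Both overlapped, and both were lowest in the libraries with most rod RNA. They hold Slc6a9, Tfap2b, Sncg and Rbpms, which moved little with rods (slopes under 0.4), so these means partly mirror the rod level. Relative to the rod level, Gad1 ranged over 1.52, Calb2 over 1.90 and Nefl over 1.24 on the log2 scale. Of the shared photoreceptor genes Rom1 ranged most, over 1.87.

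The bipolar class did not separate the groups relative to rods, although its mean was higher in SRF mice. Bipolar minus rod was -3.47, -3.41 and -2.52 in control and -1.48, -2.49 and -3.15 in SRF mice, a difference in means of 0.76 with overlap. It was 0.31 without SRF mouse 1. Where the CPM of the genes were summed before the log, mostly Trpm1 (267 to 395 of 362 to 495 CPM), it was 0.17. With only Grm6, Pcp2 and Cabp5, the bipolar genes not listed for other cells, and without Gnb1, it was -3.99, -5.12 and -4.18 in control and -2.75, -3.96 and -3.74 in SRF mice, so that the groups did not overlap, though control mouse 1 and SRF mouse 2 nearly met. Without Grm6 as well it overlapped again (-3.63, -4.42 and -3.18 against -2.66, -3.48 and -3.27). Each of these is a description of 6 values, and 3 mice against 3 do not allow an exact permutation p-value under 0.1.

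**Figure D4:**
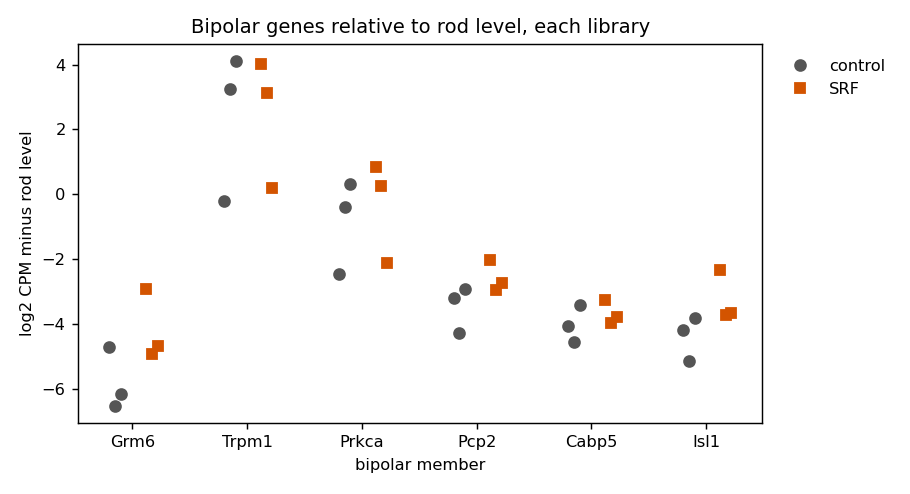
Each point is 1 library and gives the log2 CPM of a bipolar gene minus the rod level, with control mice as circles and SRF mice as squares, each in the order 1 to 3 from left to right. The SRF squares lie above the control circles for Isl1 and mostly so for Grm6 and Pcp2. The values of Trpm1 and Prkca, whose slopes on the rod level were -0.06 and 0.25, mostly mirror the subtracted rod level in both groups.

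A fit of the group with the rod level as a covariate asked of each gene whether it differed between SRF and control mice at equal rod level. The median SE of the 29 genes other than rod genes fell from 1.19 to 0.18 on the log2 scale. None was called, where 1 gene (0.00743%) of all 13454 was, the macrophage metalloelastase gene Mmp12. At an unadjusted p-value under 0.05 the fit held 4 of the 29 (13.8%), against 9.02% of all genes, a share not far from the background. Of the 4, 3 were higher in SRF mice (5.24% of all genes) and 1 was lower (3.78%). These were Gngt2 (0.64 ± 0.17, SE, unadjusted p-value 0.00508, adjusted 0.251), Prkca (0.38 ± 0.12, unadjusted 0.0125, adjusted 0.355), Prph2 (-0.41 ± 0.16, unadjusted 0.038, adjusted 0.509) and Isl1 (1.06 ± 0.45, unadjusted 0.0481, adjusted 0.545). Of the 6 bipolar genes 5 had positive values. Grm6 differed by 1.49 ± 0.79 (95% interval -0.34 to 3.32, adjusted p-value 0.651), Pcp2 by 0.79 ± 0.37 (-0.06 to 1.65, adjusted 0.592) and Cabp5 by 0.27 ± 0.33, whereas Trpm1 differed by -0.12 ± 0.15. DESeq2 with the same terms also held Grm6 and Pcp2 at an unadjusted p-value under 0.05, and called none of the 29. Over all genes that fit called 265 (1.97%) and held 9.14% at the unadjusted threshold. The size of the values of Grm6 and Isl1 changed with single libraries. Without SRF mouse 1 they were 0.71 and 0.62, and without control mouse 2 they were 1.04 and 0.72. The values of Pcp2 were 0.51 and 0.47 without the same mice. Without control mouse 1 those of Grm6, Isl1 and Pcp2 were 3.05, 1.58 and 1.14.

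**Figure D5:**
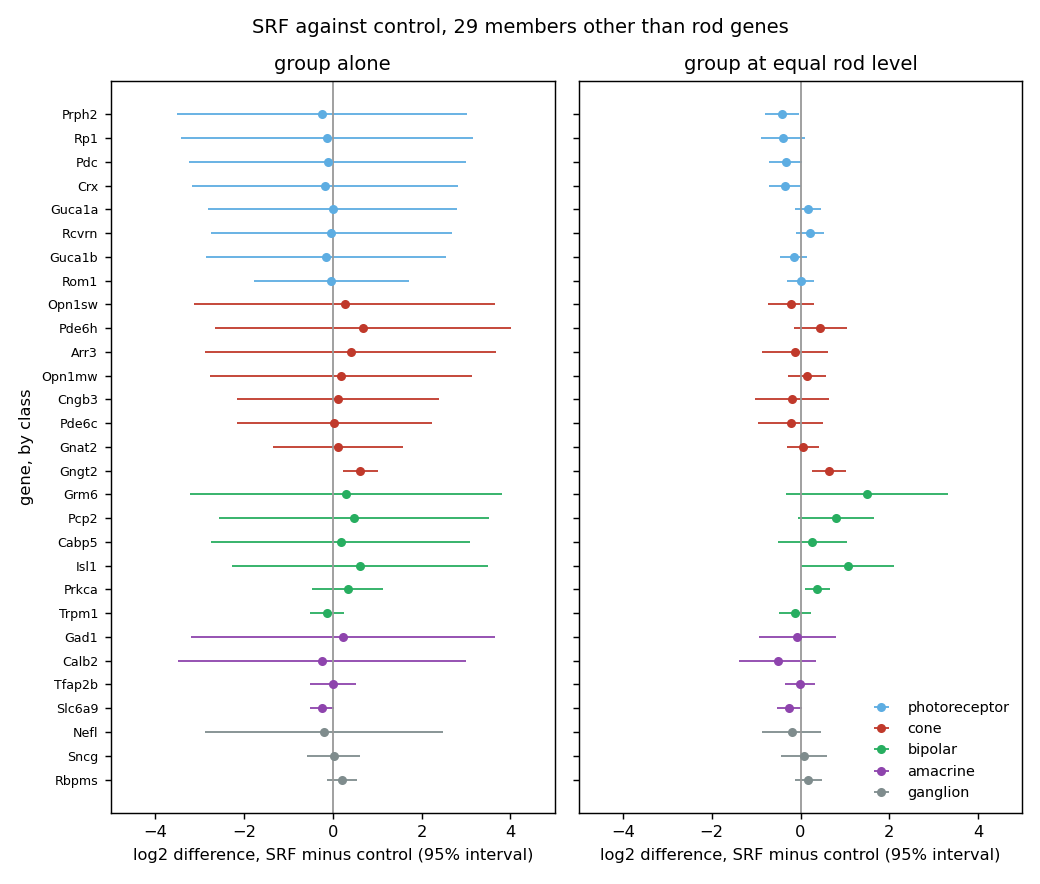
Points give the log2 difference between SRF and control mice for the 29 genes other than rod genes, with 95% intervals, for the group alone on the left and at equal rod level on the right. Intervals that span several log2 units on the left shrink on the right, where those of Gngt2, Prkca, Prph2 and Isl1 do not reach 0.

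Gene by gene, the level relative to the rod level did not overlap between groups for 2 of the 29, Isl1 above and Crx below in SRF mice. Among the 202 genes of all kinds with a slope of at least 0.8, 10.9% did not overlap, and among all 13454 genes 0.171% did not. The sets are not alike: the 202 hold the rod genes that define the level, and the 29 hold genes with slopes under 0.8. Relative to the rod level Isl1 was at -4.20, -5.13 and -3.83 in control and -2.34, -3.72 and -3.68 in SRF mice, on the log2 scale. Crx was at -1.23, -1.10 and -0.91 in control and -1.63, -1.47 and -1.25 in SRF mice. The margins between groups were narrow in both. At equal rod level Crx differed by -0.35 ± 0.15 (adjusted p-value 0.567).

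Ratios of 19 gene pairs that share a protein complex, a role or a cell were compared as well. On the log2 CPM scale the groups overlapped for 14, and Grm6 to Gnat1 was only just apart. All 6 cone to rod counterparts overlapped. The ratio of Gnat2 to Gnat1, the alpha subunits of cone and rod transducin, was 0.0174, 0.0558 and 0.0775 in counts in control and 0.0951, 0.0608 and 0.0251 in SRF mice, lowest where rod RNA was highest. The ratio of Arr3 to Sag was 0.0165, 0.0228 and 0.0185 in control and 0.0086, 0.0128 and 0.0198 in SRF mice. Opn1mw to Opn1sw was 0.111, 0.136 and 0.111 in control and 0.187, 0.204 and 0.0985 in SRF mice, with overlap through SRF mouse 3.

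Within photoreceptors 3 of 9 pairs did not overlap, each by a small step. No share over all gene pairs was computed, so these 3 cannot be set against a background. For ratios to Gnat1 alone, 17.3% of the 202 genes with a slope of at least 0.8 did not overlap. Nr2e3 to Nrl was 1.88, 1.62 and 1.94 in control and 2.73, 2.24 and 2.31 in SRF mice, a difference of 0.41 on the log2 scale. Gngt1 to Gnat1, the gamma and alpha subunits of rod transducin, was 0.102, 0.0927 and 0.101 in control and 0.109, 0.125 and 0.108 in SRF mice, a difference of 0.21. Guca1b to Guca1a was 2.58, 2.87 and 3.62 in control and 2.41, 2.33 and 2.45 in SRF mice, a difference of -0.32. The ratios of FPKM values for these 3 pairs did not overlap either. The median range of a within-photoreceptor log2 ratio over the 6 libraries was 0.72, against 3.99 for the level of a single member.

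Of 4 inner retina pairs, Pcp2 to Gnat1 did not overlap, at 0.00872, 0.00378 and 0.00943 in control and 0.0201, 0.0116 and 0.0129 in SRF mice. The difference was 1.07 on the log2 scale. Relative to Gnat1, 17.3% of the 202 genes with a slope of at least 0.8, to which Pcp2 belongs, did not overlap. Over all genes, most of which do not move with rods and so overlap, it was 0.282%, with 0.238% higher in SRF mice. Grm6 to Gnat1 in counts was 0.00303, 0.00063 and 0.00068 in control and 0.0106, 0.00278 and 0.00334 in SRF mice. In counts control mouse 1 was above SRF mouse 2, whereas on the log2 CPM scale with a prior count of 2 the groups were just apart (-8.352 against -8.350), so that no separation can be read from it. Trpm1 to Grm6 ranged from 23.2 in control mouse 1 to 1895 in control mouse 3, and Gad1 to Grm6 from 1.44 in SRF mouse 1 to 28.4 in control mouse 3. Both overlapped.

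Other genes of the same cells, from lists that were not part of the 40, were read beside them. None of the 41 tested was called in the group comparison. Of 17 other photoreceptor genes none had an unadjusted p-value under 0.05 in that comparison. At equal rod level 7 did, with 2 higher (Unc119 and Impg2) and 5 lower (Grk1, Rgs9bp, Slc24a1, Rbp3 and Rp1l1), and none was called. The same threshold held 5.24% of all genes as higher and 3.78% as lower. Unc119, a carrier of lipid-modified transducin, was at 0.97 ± 0.24 (SE, adjusted p-value 0.237), and Grk1, which phosphorylates the rod opsin, was at -0.59 ± 0.15 (adjusted 0.253). Of 3 other cone genes tested, out of 4, 1 had an unadjusted p-value under 0.05, Gnb3. It encodes the transducin beta subunit of cones, which ON bipolar cells use too. It gave 1084, 208 and 235 counts in control and 530, 707 and 3121 in SRF mice. At equal rod level it differed by 1.59 ± 0.19 (unadjusted p-value 4.02e-05, adjusted 0.0659). Of 8 other bipolar genes tested, out of 10, 1 passed the unadjusted threshold, Gng13, the gamma subunit that pairs with it in ON bipolar cells, at 0.998 ± 0.408 (adjusted 0.517). None of the 5 tested of 12 other amacrine and horizontal genes and none of the 8 tested of 11 other ganglion genes passed it. Relative to the rod level the groups did not overlap for 14.6% of the 41, with 3 above and 3 below in SRF mice. Among the 202 genes with a slope of at least 0.8 it was 10.9%, and among all genes 0.171%. Above were Impg2, Tulp1 and Gnb3, and below were Rbp3, Rgs9bp and Grk1. Gnb3 was at -1.92, -1.81 and -1.21 in control and 0.57, 0.16 and -0.73 in SRF mice, on the log2 scale. Genes of Mueller glia, the radial glia of the retina, overlapped between groups, with a mean log2 CPM of 7.26 to 7.91 in control and 7.18 to 7.89 in SRF mice.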

How the data were processed

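RPE-choroid RNA of 3 control and 3 SRF mice was sequenced. The authors filtered reads, counted those on each gene with StringTie and deposited the counts without normalization, and the authors also deposited FPKM values, scaled by length and mapped reads. Aligner, build, annotation and strandedness are not given in the sources used here. Groups and mouse numbers came from the sample titles. The paper's supplementary values were not used.

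Counts were analysed with edgeR 4.0.16 in R 4.3.3 (TMM, glmQLFit and glmQLFTest with installed defaults) for genes above 50 counts in 2 samples or more, with Benjamini-Hochberg adjustment over all genes tested. Called genes had an adjusted p-value below 0.05 and a log2 fold change of 0.5 or more in size. The rod level (10 rod genes, centred) was the covariate of the fit at equal rod level, in which rod genes were not tested. Log2 CPM values have a prior count of 2. Intervals are 95% and, like the tests, take the spread between mice as the error. A count of 3 equals 0.125 to 0.223 CPM, depending on the library. Gene positions come from GENCODE M21 (GRCm38), which holds 15659 of the 15663 identifiers, and promoters from RefSeq (GRCm38.p6). The genes described in full were all members of each class, and pairs were chosen by shared complex, role or cell. The members, lists and pairs were chosen with earlier results of these data known.

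The fits were tested on simulated counts with 200 of 13454 genes changed. In the group comparison edgeR recovered 36% of genes changed by a log2 fold change of 1 and 91% of those changed by 2, and at equal rod level it recovered 31% and 90%. The changed genes were drawn at random from all genes tested, so the shares of the group comparison do not describe the 40 genes. Their median SE in that comparison was 1.23 on the log2 scale, against 0.188 for all genes tested. Alternatives were DESeq2 1.42.0, limma 3.58.1 on log2(FPKM + 1) and log2(FPKM + 0.1), RLE normalization, no filter, the newer edgeR form, another prior count, a replicate block and fits without each single mouse. Leaving out control mouse 1 with SRF mouse 3, cone sets without Gngt2 and bipolar sets without Grm6 were alternatives chosen after seeing the data.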

Additional observations from a re-analysis of the deposited data

How the results depend on the processing

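With 3 mice a group and retina RNA that varied over 3.78 log2 units, changes in retina level smaller than several fold could not be seen, and Grm6, with 5 to 199 counts, limits every ratio that holds it. The count of members called in the group comparison was 0 under every alternative. The number at an unadjusted p-value under 0.05, 1 of 40, was 2 with DESeq2 (7.23% of all genes), ranged from 1 to 5 when each mouse was left out (5 without control mouse 1, with 7.75% of all genes, and 3 without SRF mouse 3, with 12.8%) and was 12 without both control mouse 1 and SRF mouse 3 (17.5%). At equal rod level the number of non-rod members at that threshold, 4 of 29, ranged from 1 (without control mouse 2) to 12 (without SRF mouse 3), with 2 without SRF mouse 2 and 11 without control mouse 1, and the share of all genes moved with it (4.91%, 16.8%, 4.24% and 12.0% in that order, against 9.02% with every mouse). The number called, 0, ranged from 0 to 1 when each mouse was left out, the 1 being Gngt2 without SRF mouse 3. That fit called 1.53% of all genes, and the fit without control mouse 1 called 0.609%, against 0.00743% with every mouse. The cause was not tested.

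Mouse numbers are shared between groups, but mice of the same number are different animals, and the deviations from the group means correlated at -0.48, 0.49 and -0.30 for numbers 1, 2 and 3, so the numbers do not pair them. With the number as a replicate block the group comparison still held 1 member. With the block and the rod level, which leave 1 residual degree of freedom, 15 non-rod members were under the unadjusted threshold and 5 were called (Gngt2, Grm6, Isl1, Pcp2 and Calb2), where 23.2% of all genes were under that threshold and 4.14% were called. Of 11 class levels and class ratios, only photoreceptor minus rod (-0.23 to -0.10) and bipolar minus rod (0.17 to 1.15) kept their sign under every alternative. The others changed sign under some of them, chiefly without single mice, by less than the SD between mice. Of the 19 pair ratios 14 kept their sign. Of the single genes, Prph2, Prkca and Isl1 passed the unadjusted threshold at equal rod level but not under every alternative. Prph2 missed it in 4 of the 6 fits that left out a mouse, and with the shared photoreceptor genes as the covariate (-0.22).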
